A study of Mus musculus with 10 samples.

Results

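Transcripts of the YAP and TEAD pathway were followed in left atrium of adult mice labelled control or Tbx5 knockout. Members were taken by gene symbol from a list of 10: the factors Yap1, Wwtr1 and Tead1, the upstream regulators Lats2, Amotl2 and Ajuba, and the target genes Cyr61, Ctgf, Ankrd1 and Axl. The deposited table held 9 of these 10 symbols among its 23337 genes, and all 9 were among the 13191 genes that passed the filter on low counts. Ajuba was absent under that symbol. The row Jub, which RefSeq lists as an earlier symbol of Ajuba, is described beside the members and counted among none of the totals for the 9. RefSeq now names Cyr61 as Ccn1 and Ctgf as Ccn2.

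Total RNA was measured in 10 libraries, each labelled as its own mouse, on a mixed background of C57B6 and 129. The 4 control libraries (2 female, 2 male) carry the genotype label Wildtype (Tbx5 +/+), and the 6 knockout libraries (3 female, 3 male) carry Tbx5 Null (Tbx5-/-). In the knockout, a Cre recombinase that tamoxifen activates and that is expressed from the ubiquitous R26 promoter removed exon 3 of Tbx5, so deletion was not limited to cardiomyocytes. Tissue was taken 1 week after 3 daily doses of 0.167 mg tamoxifen. Ages are given as 8-10 weeks in the sample labels and 6-8 weeks in the protocol. Whether control mice received tamoxifen or carried the Cre is not given in the sources used here. Total counts ran from 5701670 to 7697556 per library.

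YAP (from Yap1) and TAZ (from Wwtr1) are transcriptional co-activators that do not bind DNA themselves. They enter the nucleus when the Hippo kinase cascade is inactive, as happens in stretched or stiff tissue, and act mainly through the TEAD family of DNA-binding factors. The kinases LATS1 and LATS2, with their MOB1 adaptors, phosphorylate YAP and TAZ and hold them in the cytoplasm, while angiomotins such as AMOTL2 tether them at junctions and AJUBA restrains LATS. Several regulators, among them Lats2, Amotl2 and Ajuba, are themselves transcribed in response to YAP, and in the heart the pathway is best known for its roles in growth, stretch responses and fibroblast activation. Transcript levels do not show where YAP and TAZ proteins lie in the cell or whether they are phosphorylated.

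The targeted gene was read first. Tbx5 stood at 939 ± 125 normalized counts in controls (SD, n = 4) and 1952 ± 336 in the libraries labelled knockout (SD, n = 6), a log2 fold change of 1.03 ± 0.14 (SE) with an adjusted p of 4.78e-05. Every knockout library lay above every control. A count over the whole gene does not measure the deleted exon 3, so it is no check of the labels, and the groups below are the groups as labelled. Normalized counts are the deposited raw counts divided by 1 size factor per library. All tests of genotype used edgeR's quasi-likelihood test with Benjamini-Hochberg adjustment over all 13191 genes, and "rose" or "fell" means an adjusted p under 0.05.

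Among the 9 members, 7 rose in the knockout, Lats2 and Tead1 did not pass, and none fell in edgeR, DESeq2 or limma-voom or had a lower level at an unadjusted p under 0.05. The 7 were Cyr61, Ankrd1, Ctgf, Amotl2, Yap1, Wwtr1 and Axl. Over all tested genes 42.6% passed in either direction, 20.8% by rising and 21.8% by falling, so calls were common in these libraries. In 7 of 9 members every knockout library also lay above every control library, which held for 16.3% of tested genes. The median log2 fold change was 0.33 over the 9 members and -0.00092 over all tested genes. The members were chosen with earlier results of these data known, so no excess over all genes is read from these values. With scaling by library size alone, that median over all genes moved to 0.14 and the split of calls over all genes moved from 2741 higher and 2881 lower to 3942 higher and 2020 lower, while 8 of 9 members rose and none fell.

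**Figure D1:**
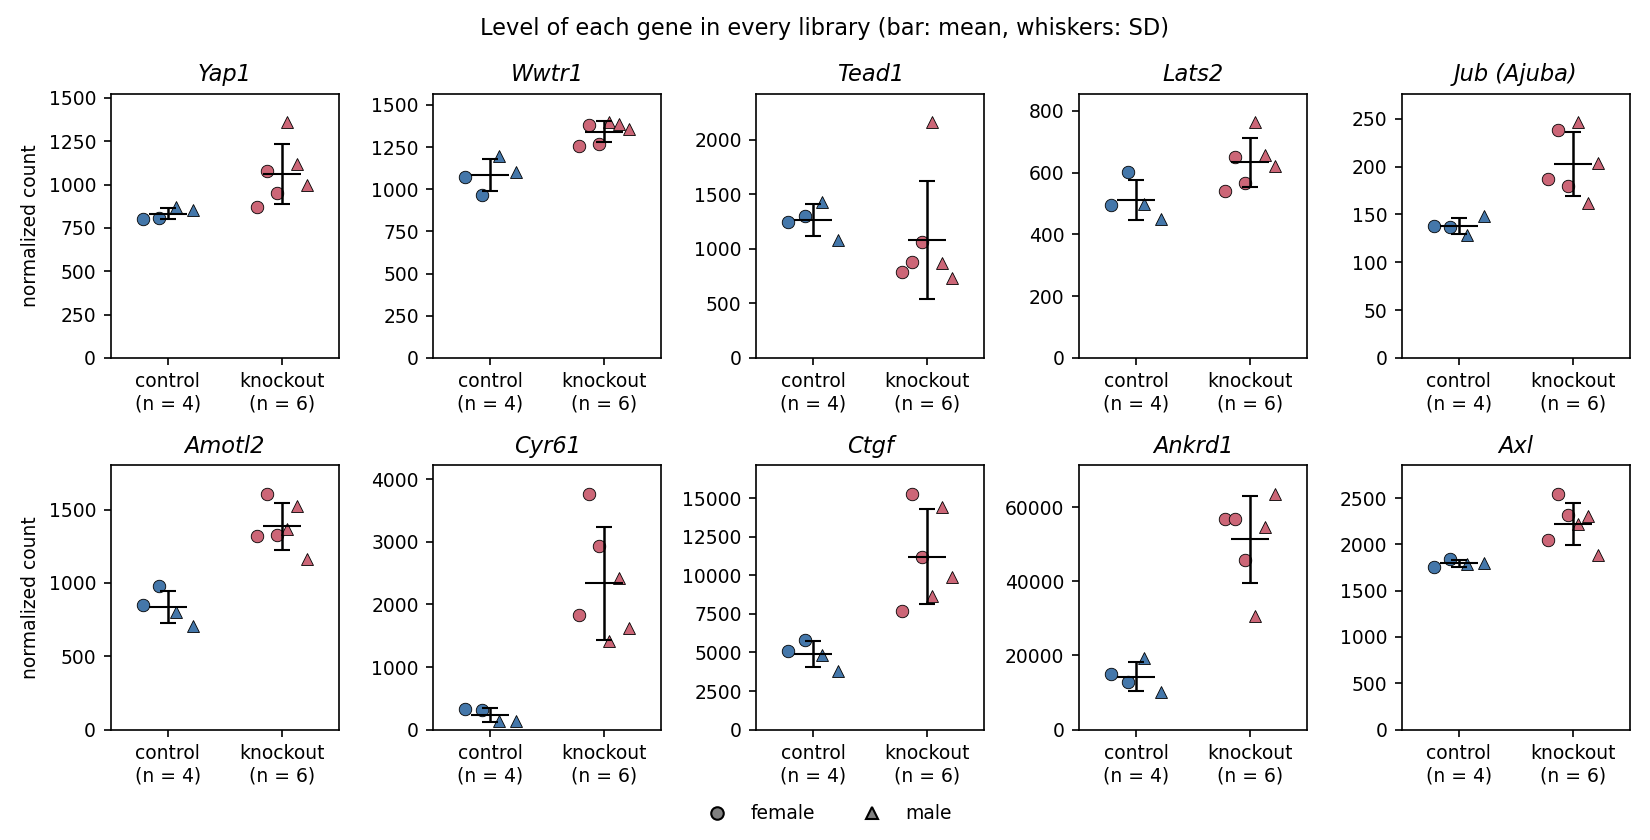
Normalized counts of the 9 members and Jub (Ajuba) in every library, on linear axes that start at 0, with controls in blue and knockouts in red, females as circles and males as triangles, and the group mean with its SD in black. Cyr61, Ankrd1, Ctgf and Amotl2 are separated by a wide gap, the lowest Yap1 knockout sits at the level of the highest control, and 1 Tead1 knockout library stands at 2167 while the other 5 lie between 729.8 and 1062.

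The letters of the TEAD binding motif were looked up in the promoters of the members, since these genes are described together as targets or parts of the pathway. The search used GGAATG and its reverse complement CATTCC in RefSeq windows from 250 bases before to 50 bases after a transcription start (GRCm38.p6). A window was matched for 7 of the 9 members, all but Tead1 and Ctgf, and all 7 held the letters in at least 1 window. Of 32851 such windows of all genes, 14.7% held them. That share counts windows, while the 7 are genes, some with 2 windows. The members were also listed as genes of this pathway, so no excess over all genes is read from it. Lats2 held the letters in 1 of its 2 windows, and the 2 overlapping windows of Wwtr1 shared the same match. The T-box letters AGGTGT and their reverse complement ACACCT were in 0 of the 7 and in 13.7% of all windows. A match describes these letters alone, and binding was not measured in these libraries.

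The 250 bases before the start are shown for the 3 members with the largest rises that had a window, written in the direction of transcription with the TEAD letters in capitals. The match lies at 210 and 123 bases before the start in Ankrd1 (chr19:36119845-36120094, minus strand), 103 bases before it in Cyr61 (chr3:145649986-145650235, minus strand) and 65 bases before it in Amotl2 (chr9:102717554-102717803, plus strand).
Ankrd1: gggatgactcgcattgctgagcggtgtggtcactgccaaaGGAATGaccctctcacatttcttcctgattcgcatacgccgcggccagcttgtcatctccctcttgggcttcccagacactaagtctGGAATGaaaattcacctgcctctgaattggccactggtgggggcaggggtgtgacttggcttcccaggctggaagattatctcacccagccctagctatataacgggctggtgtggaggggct
Cyr61: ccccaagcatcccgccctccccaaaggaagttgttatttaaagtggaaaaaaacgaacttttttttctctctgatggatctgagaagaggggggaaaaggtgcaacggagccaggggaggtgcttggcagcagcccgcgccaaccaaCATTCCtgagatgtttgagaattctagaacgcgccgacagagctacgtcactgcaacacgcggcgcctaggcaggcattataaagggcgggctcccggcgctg
Amotl2: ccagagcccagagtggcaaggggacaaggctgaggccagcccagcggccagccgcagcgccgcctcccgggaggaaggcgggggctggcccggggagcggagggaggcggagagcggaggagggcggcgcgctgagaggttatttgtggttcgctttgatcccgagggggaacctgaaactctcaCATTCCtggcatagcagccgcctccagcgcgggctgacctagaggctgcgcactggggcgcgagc

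For the remaining members and Ajuba, 26 bases around each match are shown to compare the flanks, oriented so that the capitals read GGAATG. The matches lie 141 bases before the start in Yap1, 136 in Wwtr1 and 233 in Axl, and 4 bases after the start in Lats2. Ajuba has matches at 186 and 164 bases before its start and also 1 match of the T-box letters.
Yap1: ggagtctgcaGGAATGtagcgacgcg
Wwtr1: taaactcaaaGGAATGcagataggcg
Axl: aaattctacaGGAATGtttaccagac
Lats2: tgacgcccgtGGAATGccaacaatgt
Ajuba, farther match: ggggcactgtGGAATGtatccatcaa
Ajuba, nearer match: gtttacagttGGAATGcgcggagggg

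Cyr61 (chr3:145646976-145649981, GRCm38) encodes a secreted matrix-associated protein of the CCN family and is a standard readout of YAP activity. Its normalized counts were 335 and 318 in the control females and 142 and 141 in the control males. The knockout libraries ran from a lowest of 1416 through a median of 2129 to a highest of 3773. All 6 knockouts lay well above all 4 controls, and within the controls both females were above both males. The log2 fold change was 3.30 ± 0.34 (SE), or 9.82-fold, with an adjusted p of 8.82e-06, and 0.49% of tested genes had a log2 fold change as high or higher.

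Ctgf (chr10:24595442-24598683), a second CCN family member linked to fibrosis, stood at 5122, 5808, 4827 and 3807 normalized counts in control F1, F2, M1 and M2. Knockout libraries gave a lowest value of 7720, a median of 10542 and a highest of 15309. The groups did not overlap, and the knockouts spread more widely than the controls. Its log2 fold change was 1.17 ± 0.19 (SE), or 2.25-fold, with an adjusted p of 0.00029.

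Ankrd1 (chr19:36111961-36120099) encodes a stretch-responsive ankyrin repeat protein of the sarcomere and nucleus, made mainly by striated muscle cells. Controls F1, F2, M1 and M2 held 14905, 12868, 19325 and 10055 normalized counts. Knockouts ran from 30505 in M1, the lowest, through a median of 55736 to 63639.7 in M3. The groups did not overlap, and knockout M1 was apart from the other 5, which lay at 45678 or above. Its log2 fold change was 1.82 ± 0.22 (SE), or 3.54-fold, with an adjusted p of 2.4e-05.

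Axl (chr7:25757273-25788705) encodes a receptor tyrosine kinase that binds GAS6. Control values of 1758, 1844, 1789 and 1794 lay close together. Knockout values had a lowest of 1888, a median of 2266 and a highest of 2549. Every knockout was above every control, though knockout M3 was near the controls. The rise was small, a log2 fold change of 0.28 ± 0.09 (SE) with an adjusted p of 0.0219, and in fits of females alone and of males alone the adjusted p was 0.0509 and 0.324.

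Of the factors, Yap1 (chr9:7931999-8004596) held 803, 804, 868.00 and 854 normalized counts in control F1, F2, M1 and M2. Knockouts ran from 868.10 through a median of 1036 to 1362. The groups did not overlap, but control M1 and knockout F1 lay less than 1 normalized count apart. Its log2 fold change was 0.33 ± 0.11 (SE) with an adjusted p of 0.0294. Leaving out 1 library raised that to 0.0656 without control F1, 0.0601 without control F2 and 0.0502 without knockout M2.

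Wwtr1 (chr3:57455649-57575910), which encodes TAZ, held 1074, 968, 1194 and 1101 in the same order of controls and a lowest of 1257, a median of 1369 and a highest of 1399 in the knockouts. The 6 knockouts formed a tight group above all controls. On the log2 scale it rose by 0.28 ± 0.08 (SE) with an adjusted p of 0.0128, and it was 0.53 (adjusted p = 0.000112) when offsets for GC content and exon length were added.

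Tead1 (chr7:112679318-112906807), a DNA-binding partner of YAP and TAZ, did not pass: its log2 fold change was -0.25 ± 0.25 (SE) with an adjusted p of 0.453. Controls F1, F2, M1 and M2 held 1244, 1302, 1429 and 1083 normalized counts. Knockouts F1, F2, F3, M2 and M3 held 787, 883, 1062, 868 and 729.8, all below the lowest control, and knockout M1 held 2167, above the highest. Without knockout M1 the log2 fold change was -0.55 with an adjusted p of 0.00133. In females alone, a fit that also leaves out knockout M1, it was -0.51 with an adjusted p of 0.00854. The female change from the fit of all libraries with sex and genotype was -0.51 ± 0.35 (SE), with an adjusted p of 0.297. With GC and exon length offsets and all libraries it was 0.07, with an adjusted p of 0.818.

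Among the regulators, Amotl2 (chr9:102716672-102733418), an angiomotin that holds YAP at junctions, had control values of 852, 977, 803 and 709 in F1, F2, M1 and M2. Its knockouts ran from 1166 through a median of 1345 to 1609.6, with no overlap between the groups. The log2 fold change was 0.71 ± 0.11 (SE), or 1.63-fold, with an adjusted p of 0.000191.

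Lats2 (chr14:57689662-57758388), the kinase that phosphorylates YAP and TAZ, held 494, 602, 499 and 450.4 in the same controls. Knockouts had a lowest of 539, a median of 637 and a highest of 764, and control F2 lay within their range. The log2 fold change of 0.28 ± 0.11 (SE) had an adjusted p of 0.0506, just outside the threshold, while Axl and Wwtr1 with the same rounded change lay inside it. It passed under 12 of 22 alternative fits, among them DESeq2 with an adjusted p of 0.0344.

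The Jub row (Ajuba, chr14:54567472-54577558), a LIM protein that binds LATS, held 138, 137, 129 and 148 normalized counts in control F1, F2, M1 and M2. Knockouts ran from 162 through a median of 196 to 247, all above the controls. On the log2 scale the rise was 0.53 ± 0.13 (SE) with an adjusted p of 0.00438, and in males alone it was 0.55 with an adjusted p of 0.117.

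The authors' deposited table gave log2 fold changes of 2.82 for Cyr61, 1.76 for Ankrd1, 1.15 for Ctgf and 0.72 for Amotl2. For Lats2, the authors' deposited table listed an adjusted p of 0.033, on the other side of 0.05 from the value above.

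Knockout libraries did not rank the members alike. Knockout M1 was the highest of the 6 for Yap1, Wwtr1, Tead1 and Lats2, and the lowest for Ankrd1 and Cyr61. Knockout F2 was the highest for Cyr61, Ctgf, Amotl2 and Axl, and M3 for Ankrd1. The order M1, M2, F2, M3, F3, F1 was shared by Yap1, Wwtr1 and Lats2. Knockout M1 also had the lowest mean correlation with its own group across tested genes, 0.966 against 0.972 to 0.979 in the other 9 libraries. Without it, 7 of 9 members rose and Tead1 fell.

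**Figure D2:**
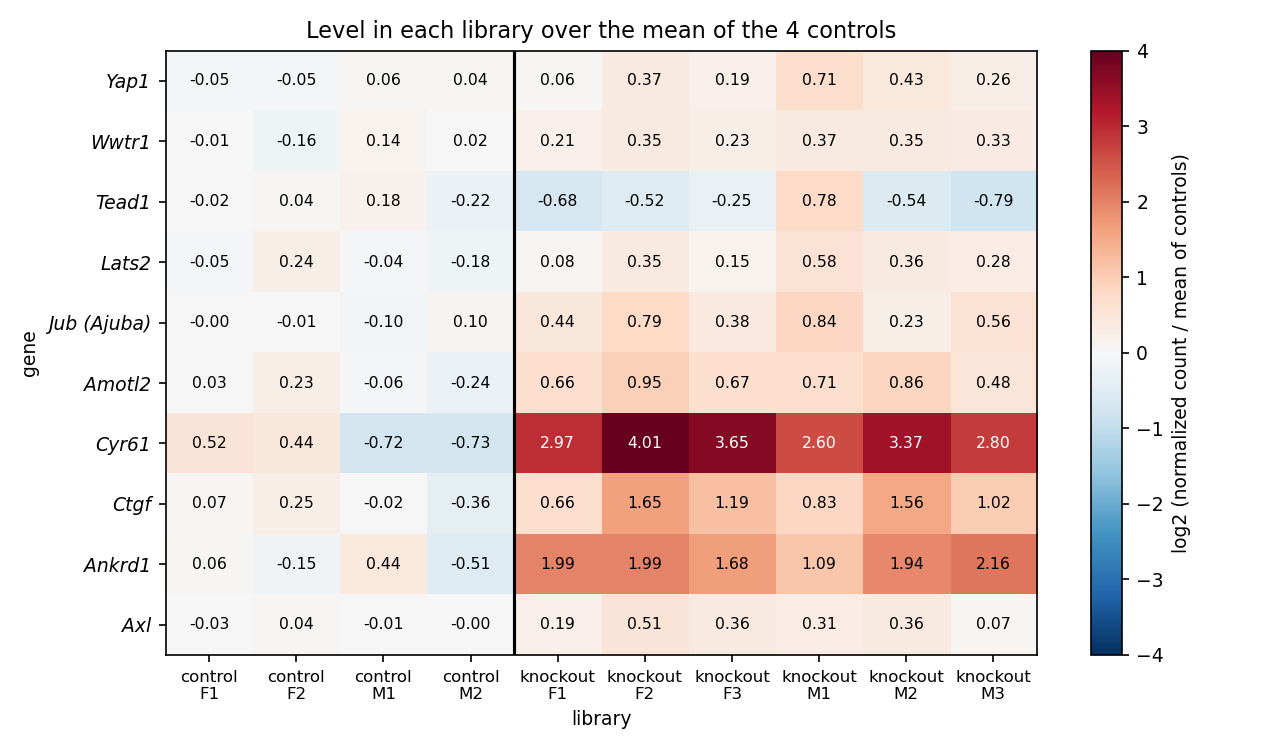
Each cell is the log2 of a library's normalized count over the mean of the 4 controls, for the 9 members and Jub (rows) in the 10 libraries (columns), with red above and blue below the control mean. Cyr61 is the darkest row, from 2.60 to 4.01 in the knockouts, and Tead1 is below the control mean in every knockout but M1, where it reaches 0.78.

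Expressed per kilobase of exon, so that genes can be set beside each other, the control order was Ankrd1 at 7073 ± 1932 normalized counts per kb (SD, n = 4), Ctgf at 1763 ± 300 and Axl at 419 ± 8.32. Wwtr1 at 227, Yap1 at 199.6 and Amotl2 at 187 followed, with ranges that overlapped between neighbours. Tead1 at 126, Cyr61 at 116 and Lats2 at 79.0 overlapped likewise, and Jub was lowest at 40.6. In the knockouts Cyr61 reached 1157 ± 445 (SD, n = 6) and moved from the eighth to the third place. Ankrd1 at 25428 and Ctgf at 4039 stayed above it, and Axl at 519 lay below it, each with a range apart from the next. Amotl2 at 310.3, Wwtr1 at 281, Yap1 at 254, Tead1 at 108 and Lats2 at 97.9 followed, each with a range that overlapped the next of these 5. Amotl2 lay apart from Axl above it, and Lats2 lay apart from Jub, the lowest, at 59.7.

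A ratio of counts within a library does not depend on how libraries are scaled, and 2 such ratios were compared. The Cyr61 to Ctgf ratio was 0.0657 and 0.0549 in the control females, 0.0296 and 0.0373 in the control males, 0.238, 0.246 and 0.263 in the knockout females and 0.163, 0.168 and 0.165 in the knockout males. All knockouts lay above all controls, and within each genotype both sexes were apart, females being higher. The mean log2 ratio differed by 2.18 (exact two-sided permutation p = 0.00952, the smallest two-sided value that these 210 splits allow, and 0.019 after adjustment over both ratios). Thus Cyr61 rose more than Ctgf did. The Wwtr1 to Yap1 ratio was 1.30 in controls and 1.28 in knockouts (geometric means), with a log2 difference of -0.03 (exact two-sided permutation p = 0.867, adjusted p = 0.867). Its sign changed when control M1 or knockout M1 was left out, to 0.00072 and 0.04, and no difference in either direction is called.

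**Figure D3:**
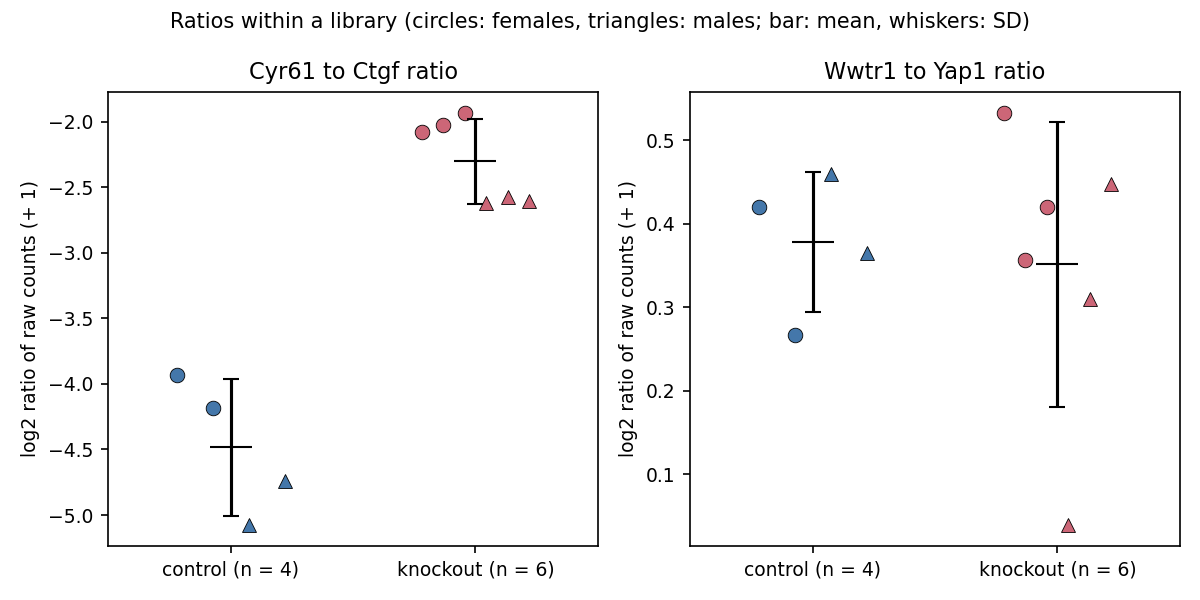
The log2 ratio of raw counts (1 added to each) within each library, for Cyr61 over Ctgf and Wwtr1 over Yap1, with controls in blue, knockouts in red, females as circles, males as triangles, and the mean with its SD in black. The Cyr61 to Ctgf ratio is at -3.93 or below in controls and -2.62 or above in knockouts, and the Wwtr1 to Yap1 ratio overlaps between the groups, with knockout M1 lowest at 0.04.

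Both labelled sexes were represented in each genotype, and the genotype effect was compared between them with an interaction term. None of the 9 members passed, against 0.205% of tested genes (27 of 13191), none passed with limma-voom, and none had an unadjusted p under 0.05 in edgeR. Cyr61 changed by 3.10 ± 0.30 (SE) on the log2 scale in females and 3.66 ± 0.32 in males, a difference of 0.57 ± 0.39 with an adjusted p of 0.849. Lats2 had the smallest unadjusted interaction p, 0.0518, from 0.07 ± 0.14 in females and 0.50 ± 0.14 in males. With 2 control mice of each sex, the standard errors of these differences ran from 0.17 for Wwtr1 to 0.49 for Tead1. Differences of that size would not have been detectable, and larger ones could also be missed. For Lats2, a difference of 0.43 ± 0.20 (SE) had an adjusted interaction p of 0.697.

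**Figure D4:**
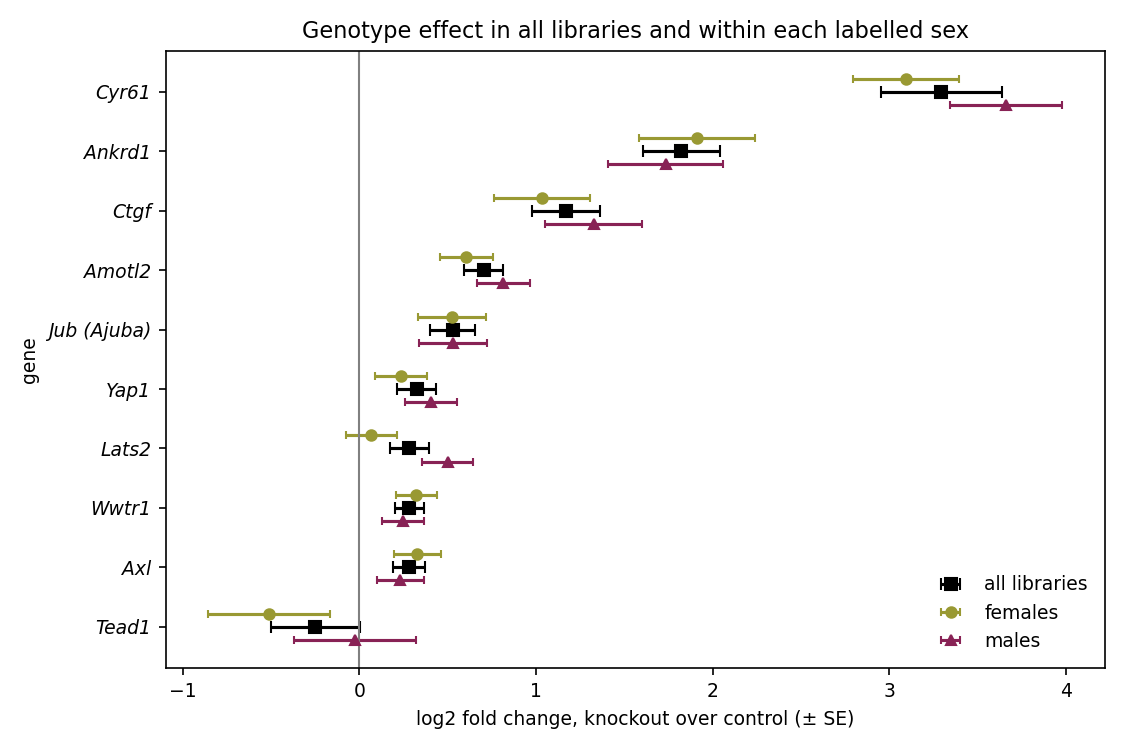
Log2 fold change of knockout over control (± SE) for the 9 members and Jub, from all 10 libraries (black squares), and for females (olive circles) and males (purple triangles) from the fit with sex and genotype. The 3 estimates overlap for most genes, and Lats2 and Tead1 show the widest distance between the sexes relative to the effect itself.

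Other genes of the pathway were taken from lists of known components. Calls in this list and in each list below are to be read against the 20.8% of all tested genes that rose and the 21.8% that fell. Of 17 genes of the Hippo kinase cascade and its upstream inputs, 5 rose, 1 fell and 11 did not pass, with a median log2 fold change of 0.19. Mob1b, an activator of LATS, rose from 233 ± 21.9 to 488 ± 104 normalized counts (log2 1.04 ± 0.14 SE), and Mob1a rose by 0.55 ± 0.10. Rassf1, a scaffold of the upstream kinases, rose by 0.70 ± 0.14. Wwc2 and Dchs1, named after their values were seen, completed the 5, and Taok1, an upstream kinase, fell by 0.68 on the log2 scale. Lats1, the paralog of Lats2, was at 338 ± 50.1 and 369 ± 31.0 normalized counts (log2 fold change 0.10, adjusted p = 0.47). With GC and exon length offsets 11 of the 17 rose and none fell, Taok1 stood at 0.0029 and Lats1 at 0.46 with an adjusted p of 0.00163.

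Of 11 angiomotins, Ajuba family proteins and junction scaffolds, 4 rose, 3 fell and 4 did not pass, with a median of 0.27. Amot, the founding angiomotin, rose from 118 ± 14.0 to 173 ± 12.8 normalized counts (log2 0.53 ± 0.11 SE). Amotl1 was lower, at 1651 ± 157 and 1387 ± 75.5 (log2 -0.27 ± 0.08, adjusted p = 0.0183), a call lost under 8 of 22 alternatives, among them the fits without control M1 and without knockout F3 (adjusted p = 0.12 and 0.054). The adherens junction protein gene Ctnna1 fell by 0.65 on the log2 scale and the tight junction gene Tjp1 by 0.58, or by 0.34 with the offsets. Ywhaz, a 14-3-3 protein that retains phosphorylated YAP, rose by 0.58 ± 0.10. Csnk1d and Csnk1e, casein kinase genes named after their values were seen, were the other 2 that rose. The Ajuba relatives Limd1 and Wtip did not pass, with log2 fold changes of 0.03 ± 0.09 and 0.14 ± 0.14. The 3 angiomotin genes thus had Amotl2 and Amot among the rises and Amotl1 among the falls.

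Of the other TEAD factors and VGLL cofactors, 7 were in the table and 5 were tested, of which Vgll3 rose and 4 did not pass, with a median of 0.05. Vgll3, a cofactor that competes for TEAD, rose from 68.7 ± 7.60 to 171 ± 80.1 normalized counts (log2 1.28 ± 0.29 SE, adjusted p = 0.0028), and by 0.74 in females alone. Knockout M2 was highest for it at 309 and knockout F3 lowest at 102.5. Tead2, Tead3 and Tead4 had control means of 54.8, 73.4 and 30.1 and log2 fold changes of 0.36 ± 0.18, 0.05 ± 0.20 and -0.12 ± 0.23, none of them past the threshold. Vgll4 stood at 122 ± 2.27 and 116 ± 9.60. Vgll1 and Vgll2 were listed at 0 in every library.

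Of 14 further YAP/TAZ target genes tested, 6 rose, none fell and 8 did not pass, with a median of 0.12. Nuak2, a kinase of the AMPK-related family, rose from 24.6 ± 3.75 to 66.6 ± 9.57 normalized counts (log2 1.40 ± 0.17 SE, adjusted p = 2.65e-05). Tgfb2, a TGF-beta ligand, rose from 118 ± 10.7 to 265 ± 66.5 (1.14 ± 0.18). Myof, a membrane repair protein, rose by 0.79 ± 0.14. Crim1 rose by 0.65 ± 0.15, with 0.22 (adjusted p = 0.169) in females alone and 1.11 in males alone. Fjx1 and Nt5e, named after their values were seen, completed the 6. The 6 of 14 that rose are to be read against the 20.8% of all tested genes that did.

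Among relatives of the target genes, 9 were tested, of which 4 rose, 1 fell and 4 did not pass, with a median of 0.21. Wisp2, a CCN family gene like Cyr61 and Ctgf, went from 103 ± 24.8 to 982 ± 258 normalized counts (log2 3.21 ± 0.22 SE, adjusted p = 2.82e-07). Wisp1, another CCN gene, fell from 304 ± 39.3 to 193 ± 40.6 (log2 -0.69 ± 0.15). Nov, also a CCN gene, did not pass, at 69.0 ± 20.5 and 73.2 ± 50.8, with knockout M2 at 166, but in females alone it was lower, with a log2 fold change of -0.72 and an adjusted p of 0.0457. The CCN family members did not move together.

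Ankrd23, a muscle ankyrin repeat gene related to Ankrd1, rose from 278 ± 98.3 to 819 ± 278 normalized counts (log2 1.54 ± 0.29 SE), with knockout M1 lowest at 398 and M3 highest at 1209.8, the same libraries as for Ankrd1. Ankrd2, a further relative, was at 1.86 ± 1.16 and 19.7 ± 13, with knockout M1 at 1.04, just below the lowest control at 1.05 (log2 3.34 ± 0.78, adjusted p = 0.00339, and 0.0608 with limma-voom). The AXL relative Tyro3 rose by 1.15 ± 0.27 from 35.3 ± 15.4, while Mertk was at 110.2 ± 8.89 and 129 ± 13.2 (log2 0.21 ± 0.11, adjusted p = 0.145).

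Of 14 genes of mechanosensing and the MRTF-SRF arm, which senses actin assembly in parallel with YAP, 4 rose, 3 fell and 7 did not pass, with a median of 0.30. The kinase genes Rock1 and Rock2, which act on actomyosin downstream of RhoA, fell from 1010 ± 132 to 506 ± 90.5 and from 1975 ± 251 to 1072 ± 237 normalized counts (log2 -1.02 ± 0.13 and -0.91 ± 0.15 SE). With GC and exon length offsets these were -0.55 and -0.43, both still past the threshold. Flna, an actin crosslinker, rose by 0.95 ± 0.12 and Zyx, a focal adhesion LIM protein, by 0.87 ± 0.16. Rhoa, Vcl and Mkl2, named after their values were seen, were the other 2 that rose and the other that fell.

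**Figure D5:**
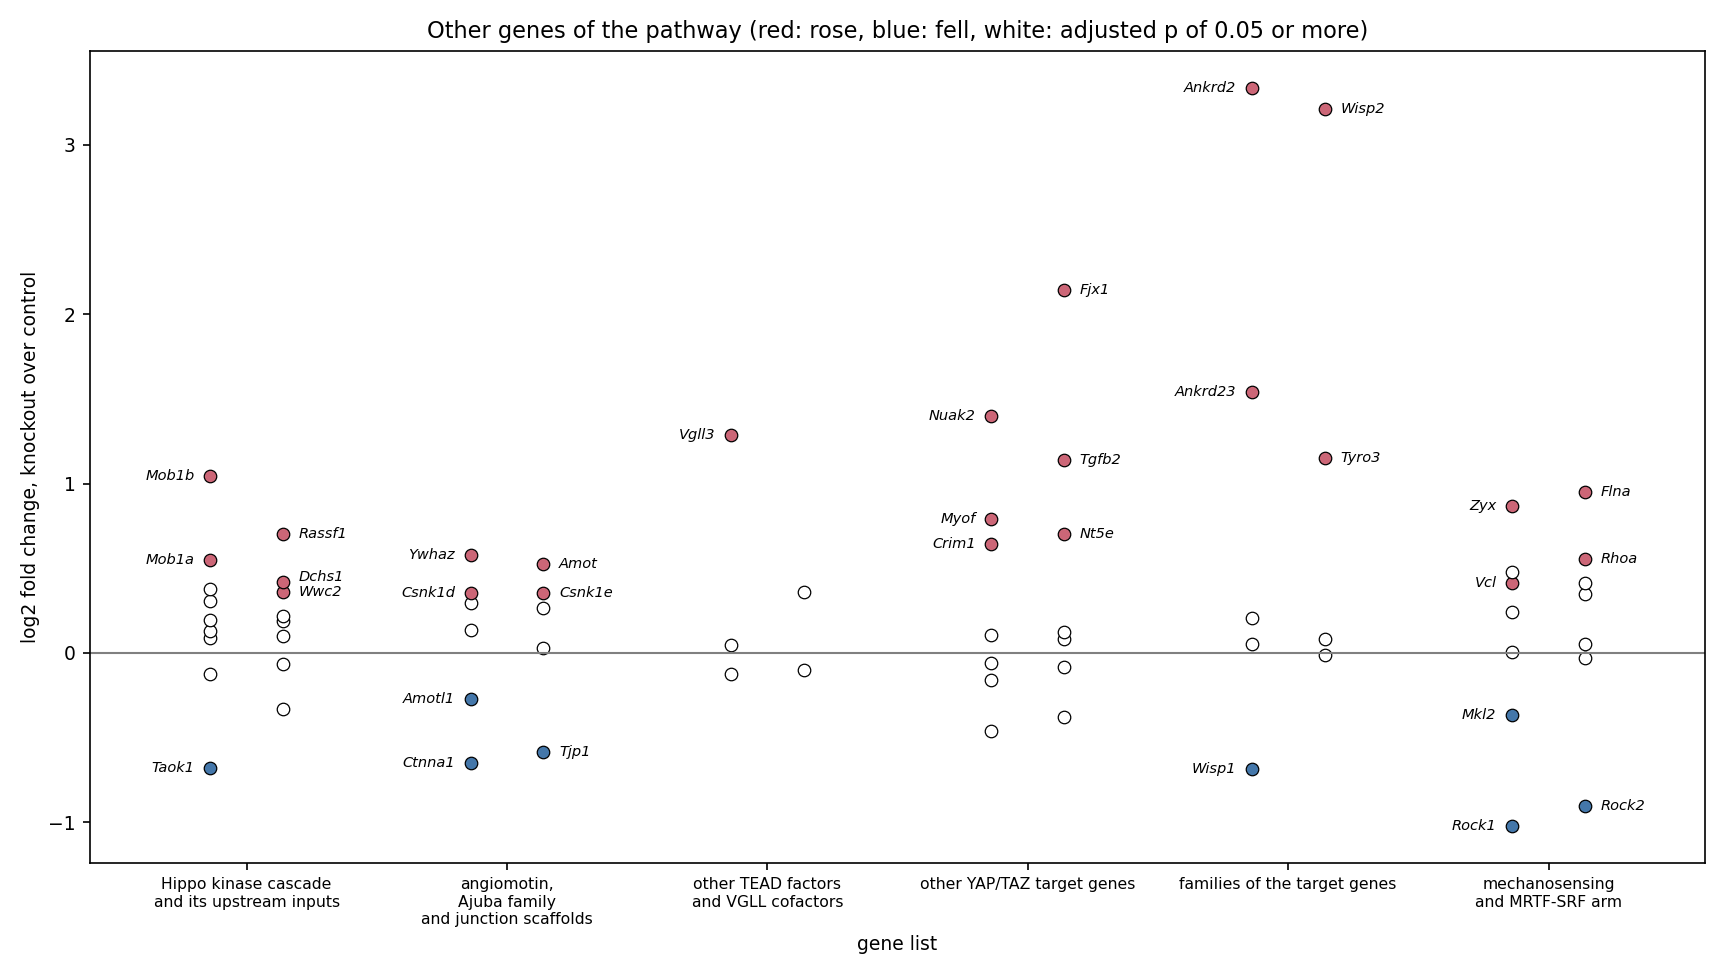
Log2 fold change of knockout over control for the tested genes of the 6 pathway lists, with genes that rose in red, genes that fell in blue and genes with an adjusted p of 0.05 or more in white; names are given for called genes. Wisp2 and Ankrd2 lie highest, above 3, and Rock1 lowest at -1.02, while the list of TEAD factors and VGLL cofactors has a single called gene, Vgll3.

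Markers of some cell types moved with the groups, and those of other types did not. Their calls are likewise to be read against the 20.8% of all tested genes that rose and the 21.8% that fell. Summed normalized counts of 4 activated fibroblast markers ran from 952 to 1577 in controls and 5111 to 14174 in knockouts (4 of 4 rose), and those of 6 fibroblast markers from 16265 to 18225 and 22366 to 28682 (4 rose, Pdgfra fell). All 7 macrophage markers rose, with sums of 3072 to 4295 and 7287 to 10913. All 4 atrial cardiomyocyte markers fell, with sums of 320501 to 373584 in controls and 84618 to 198467 in knockouts. Of 6 cardiomyocyte markers, 3 rose and 2 fell, with sums of 296408 to 339590 and 239764 to 333145. Endothelial sums of 6 markers lay at 6965 to 7884 and 7376 to 7935, 2 having risen and Kdr having fallen, and none of 5 epicardial markers passed. Of 6 smooth muscle and pericyte markers 3 rose, of 2 Schwann cell markers tested 1 rose and 1 fell, and no lymphocyte or adipocyte marker reached the test. For the labelled tissue, Nppa, Sln, Myl7 and Myl4 were abundant in every control library, Myl4 at 56814 ± 11668 for example. Of the ventricular markers Irx4 was at 0 in every library, Hey2 did not pass, and Myl2 rose from 3.25 ± 2.28 to 87.6 ± 49.1. In bulk tissue, more cells of a type and more RNA per cell cannot be told apart. Cyr61, Ctgf and Axl are made by several of these cell types, and the part of these shifts in the members' changes was not tested.

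Within the knockout group, the library order of the markers can be set beside that of the members. Knockout M1, lowest for Ankrd1, had the lowest cardiomyocyte sum, 239764, and knockout M2 the lowest atrial sum, 84618, next to 95324 in M1. The sums are unweighted, so the most abundant marker counts most. In the knockouts this was Myh6 for cardiomyocytes (mean 138013), Nppa for the atrial markers (mean 104127) and Dcn for the fibroblast markers (mean 12424). Dcn did not pass (adjusted p = 0.0952). Knockout M2 had the highest sums of activated fibroblast (14174) and macrophage markers (10913), and its Ctgf and Amotl2 levels were next to the highest. The orders also differed: knockout F3 had the lowest activated fibroblast sum, 5111, but the highest Cyr61 and Axl levels after F2, above M2 in both. The fibroblast sum was highest in F2 (28682), then F3 (26279) and M2 (25986), the same first places in that order as for Cyr61 and Axl. Its order after these differed from theirs. Ctgf and Amotl2 were also highest in F2. Yap1, Wwtr1, Tead1 and Lats2 were highest in M1, where the fibroblast sum was 24164, and Ankrd1 in M3 (24715). The part of these marker levels in the members' values was not tested.

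The genes whose levels were most like those of the 3 strongest targets were found by Pearson correlation of log2 normalized counts over the 10 libraries, among 9626 genes with a mean of at least 50. The libraries of both genotypes enter each value, so the difference between the groups is part of it, and no test was made. For Cyr61 these were Tprkb (r = 0.987), Itga9 (0.98) and Dnpep (0.977). Itga9, an integrin subunit, stood at 569 ± 52.1 in controls and 1119 ± 129 in knockouts. For Ctgf they were Mob3a (0.974), Adamts1 (0.974) and Tsc22d1 (0.97), of which Adamts1, a secreted matrix protease, went from 505 ± 57.3 to 1915 ± 952. For Ankrd1 they were Vps29 (0.976), Mcts1 (0.969) and Rrp12 (0.965). The 3 members had no gene in common among these.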

How the data were processed

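RNA from left atrium was sequenced as single-end libraries, per the labels' protocols, which name both an mRNA kit and ribosomal depletion. FastQC, TopHat2 2.0.11, featureCounts, DESeq2 and mm10 are named in the submitters' processing notes. The annotation and the strand setting, not given in the sources used here, bear on genes that overlap or lie antisense to each other. Raw counts per gene and library are the authors' deposited whole numbers, per the file headers. The normalized signal that the authors deposited beside them divides each count by a size factor of its library. The authors' own genotype comparison is deposited as a log2 fold change with its standard error, a linear fold, a test score and a p-value.

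Libraries were grouped by their titles. Genotype was tested on raw counts with edgeR 4.0.16, R 4.3.3 (filterByExpr, TMM, quasi-likelihood F-test, Benjamini-Hochberg at 0.05 over 13191 genes). The standard error is the absolute log2 fold change over the square root of F. Ratios used raw counts plus 1 and exact permutation tests (scipy 1.17.1). Functions were tested on simulated data. Alternatives were other scalings, filters, DESeq2 1.42.0, limma-voom 3.58.1, covariates, offsets, single sexes and leaving out each library. Gene positions and exon lengths came from GENCODE M21 on GRCm38. Depth of 5701670 to 7697556 counts limits low genes such as Ankrd2. The p-values weigh the difference between the groups against the spread between these mice.

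The members and gene lists were chosen with earlier results of these data known. Named genes are all members, up to 4 genes of each pathway list with the smallest adjusted p, the direct paralogs of members, the 3 genes most like Cyr61, Ctgf and Ankrd1, and Tbx5; others are marked where they appear. In the list of junction scaffolds 1 gene is not reported here.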

Additional observations from a re-analysis of the deposited data

Results flagged for a closer look

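Tead1 in knockout M1, at 2167 normalized counts, lay far from the other 5 knockout libraries: its gap to the nearest of them was 0.769 of the whole range of the group, above Dixon's 95% critical value for 6 samples. It was the single such value among 20 groups examined, each a gene in 1 genotype, where chance gives about 1 in 20.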

How the results depend on the processing

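Cyr61, Ankrd1, Ctgf and Amotl2 rose under all 22 alternative fits, with log2 fold changes of 3.10 to 3.68, 1.71 to 2.02, 1.04 to 1.34 and 0.61 to 0.85. Yap1 lost its call under 5 fits (each sex alone and without control F1, control F2 or knockout M2), Axl under 2, and Wwtr1 and Jub under 1 each (males alone). Leaving out 1 library gave 6 to 8 members past the threshold, 4709 to 6085 genes in all, a Cyr61 to Ctgf difference of 1.98 to 2.37 and a Wwtr1 to Yap1 difference of -0.064 to 0.036. In females alone 5 members rose and Tead1 fell (-0.51, adjusted p = 0.00854). For Tead1 in females, the fit of all libraries with sex and genotype gave an adjusted p of 0.297. In males alone, with fewer samples, 4 members and 2061 genes passed, and of the lists 2 genes of the Hippo kinase cascade, 1 of the junction scaffolds, 2 of the families of the target genes and 4 of mechanosensing. An absolute log2 fold change above 1, a stricter rule by construction, left 3 members, 1533 of all tested genes past the threshold, and 1, 0, 3 and 1 genes of the Hippo, scaffold, other target and mechanosensing lists. With GC and exon length offsets 11 Hippo genes and 2 TEAD and VGLL genes passed. Beside Vgll3 the second of these was Vgll4, as a fall (-0.28, adjusted p = 0.0336). Library size alone gave 2 TEAD and VGLL genes as well, but here the second was Tead2, as a rise (0.50, adjusted p = 0.0332). The cause was not tested. Taok1 changed sign with the offsets (0.0029), and Nov, not past the threshold with all libraries, had the opposite sign under 7 alternatives and passed as a fall in females alone (-0.72, adjusted p = 0.0457); the cause was not tested. Deviations of same-numbered libraries from their group means had correlations of -0.04 for M1, 0.17 for M2, -0.13 for F1 and -0.05 for F2. No reference from libraries with other numbers was computed, so these values cannot exclude pairing by number. The main fit did not pair samples. With the replicate number as a block on the 8 libraries that share one, 8 members and 5401 genes passed, and the mean paired difference of the Cyr61 to Ctgf ratio was 2.16. Depth limits the low genes, such as Ankrd2 and Fjx1.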
